A study of Mus musculus with 10 samples.

Results

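The genes described here encode the TNF receptor death complex: the receptor Tnfrsf1a, its adaptors Tradd and Fadd, the kinase Ripk1, the protease Casp8 and its inhibitor Cflar, the ubiquitin ligases Birc2 and Xiap, and the necroptosis genes Ripk3 and Mlkl. They were taken by name, not by any measured value, though earlier results of these data were known. All 10 were found by their Ensembl IDs among the 16154 genes of the deposited table. Messenger RNA had been sequenced from alveolar type II (AT2) cells, the surfactant-making cells of the lung alveolus, sorted from C57BL/6 mice aged 8 to 10 weeks. One group was HOIL-1L knockout (5 libraries, replicates 1 to 5) and the other wild type (5 libraries, replicates 2 to 6). The knockout is labelled HOIL-1L -/-, whereas the design text names floxed HOIL-1L alleles with CreSPC, a recombinase driven by the surfactant protein C promoter. Under that design, deletion would depend on the promoter's activity in AT2 cells and other lung cells would keep HOIL-1L. Each library has its own mouse number. No injury, infection or added TNF is named in the labels.

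HOIL-1L, the product of Rbck1, belongs to LUBAC, the ligase that joins ubiquitin molecules into linear chains. When TNF binds TNF receptor 1, TRADD and RIPK1 gather at its death domain with TRAF proteins and the cIAP ligases, and LUBAC chains added there hold together a complex that activates NF-kB. Where those chains are missing, RIPK1 can instead pair with FADD and caspase-8 in a complex that starts apoptosis. Caspase-8 paired with cFLIP (from Cflar) also holds back necroptosis, in which RIPK3 phosphorylates MLKL and MLKL breaches the cell membrane. These are steps of protein binding and modification, and the values below are of messenger RNA only.

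Values are the authors' normalized counts divided by a single constant, written per M, and the libraries had a depth of roughly 7.69 to 13.2 M reads. Rbck1, the targeted gene, stood at 59.3, 29.8, 36.4, 37.97 and 38.8 per M in knockout libraries 1 to 5, against 29.7, 56.7, 57.8, 56.1 and 56.6 per M in wild type libraries 2 to 6. The library labelled knockout 1 therefore sat at the level of most wild type libraries, and the library labelled wild type 2 at that of most knockout libraries. Mean log2 values differed by -0.34 over the 10 libraries, with p = 0.206 by a two-sided exact permutation test that could not go under 0.00794. The values below use all 10 libraries as labelled, and each member's fold change is also given for the 8 left without those. The mouse numbers form 2 runs, with the libraries labelled knockout 1 to 3 and wild type 2 and 3 in the first. By Xist and a Y-linked gene 3 libraries (knockout 2 and 3, wild type 2) were female. The 8 libraries thus hold female knockout libraries but no female wild type library. AT2 markers summed to between 181500 and 209000 per M in knockout and between 182000 and 218000 per M in wild type libraries.

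Promoters in the RefSeq-derived table (GRCm38.p6, the mm10 assembly) matched 9 of the 10 members, all but Tradd. The sequences upstream of the start are shown for the 2 scarcest members, Ripk3 and Mlkl, and for the abundant inhibitor gene Cflar, 5′ to 3′ on the gene's own strand, with CG dinucleotides in capitals.
Ripk3 (chr14:55788866-55789107, minus strand): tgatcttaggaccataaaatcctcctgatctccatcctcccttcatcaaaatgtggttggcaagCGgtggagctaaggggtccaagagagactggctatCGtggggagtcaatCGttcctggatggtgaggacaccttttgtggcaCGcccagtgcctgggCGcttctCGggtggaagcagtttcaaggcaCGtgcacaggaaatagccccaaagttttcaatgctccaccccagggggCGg
Mlkl (chr8:111338206-111338455, minus strand): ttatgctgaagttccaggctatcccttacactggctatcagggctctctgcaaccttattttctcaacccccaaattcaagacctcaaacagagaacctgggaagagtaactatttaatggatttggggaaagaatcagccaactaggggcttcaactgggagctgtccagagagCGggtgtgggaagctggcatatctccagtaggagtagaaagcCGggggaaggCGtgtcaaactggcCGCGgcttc
Cflar (chr1:58711241-58711490, plus strand): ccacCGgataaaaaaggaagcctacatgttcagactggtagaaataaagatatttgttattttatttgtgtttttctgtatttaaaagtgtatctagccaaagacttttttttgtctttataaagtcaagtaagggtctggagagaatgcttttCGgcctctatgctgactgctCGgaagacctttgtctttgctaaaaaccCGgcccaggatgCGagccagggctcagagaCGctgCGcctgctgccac
These windows were alike in CG count. In the 250 bases before the start, Ripk3 had 8 CG dinucleotides, Mlkl 5 and Cflar 7, against a median of 6 over 32851 promoters, while Fadd had 19 and both Ripk1 promoters 19 and 32. The motif GGGCGG (the core of a GC box, either strand) was found before Ripk3 and Fadd, in both Ripk1 windows, in 1 of the Birc2 windows and in 2 of the Xiap windows, and 32.7% of all promoters of this length hold it. An NF-kB-type site (GGG, 2 bases of any kind, then TTTCC, either strand, held by 1.41% of promoters) and an interferon-response-type element (GAAA, 2 bases of any kind, GAAA, either strand, held by 2.98%) were found in 0 of the members' windows.

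Messenger RNA of the receptor complex and of the caspase-8 arm was present in every AT2 library, and messenger RNA of the necroptosis arm was scarce. To set genes side by side, levels were divided by the length of annotated exons in kb. Tnfrsf1a led with 38.9 ± 2.22 per M per kb (SD, n = 10), above 92.8% of tested genes, and its range did not overlap that of Xiap, which followed at 10.6 ± 1.32. Casp8 (6.59 ± 0.941), Tradd (6.20 ± 0.690), Cflar (5.68 ± 0.699), Fadd (4.56 ± 0.449), Birc2 (3.56 ± 0.420) and Ripk1 (2.57 ± 0.386) formed a middle run in which each gene's range overlapped the next. These 6 lay on either side of the median of all tested genes, 4.63 per M per kb. Mlkl (0.753 ± 0.355) was lower than Ripk1 with no overlap, and Ripk3 (0.208 ± 0.164) was the lowest, above 1.48% of tested genes. The length used matters most for Cflar, whose annotated exons add up to 12669 bases. Per kb of its median coding transcript (2586 bases) Cflar stood at 27.8 ± 3.43, second to Tnfrsf1a at 46.8 ± 2.67, with Xiap at 15.2 ± 1.89, while Mlkl and Ripk3 remained the lowest members at 0.871 ± 0.411 and 0.252 ± 0.199. In bulk RNA a lower level of a gene in each cell and fewer cells that carry it cannot be told apart.

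**Figure D1:**
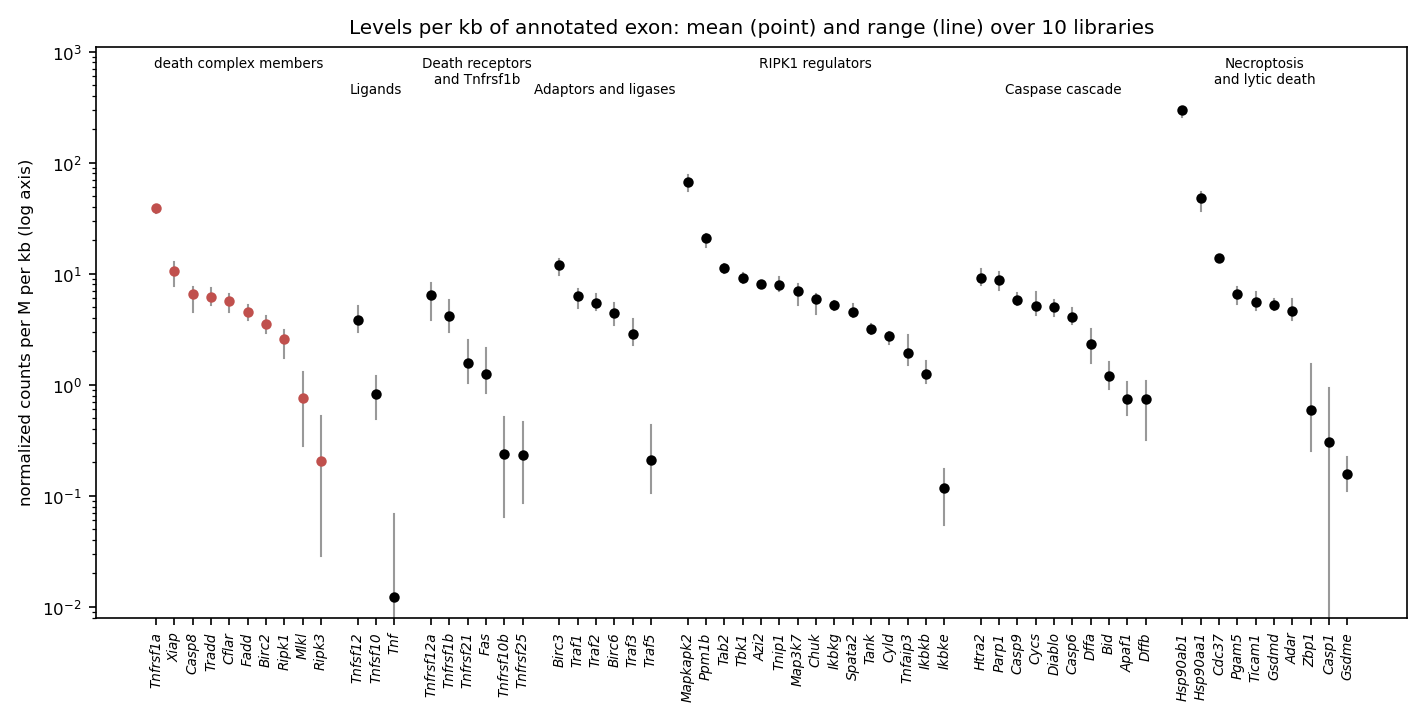
Normalized counts per M per kb of annotated exon (log axis) for the 10 members, in red, and related genes, in black, grouped by role; points are means and lines the range over the 10 libraries, cut at the lower edge where a library is at 0. Tnfrsf1a stands at 38.9 and Ripk3 at 0.208, with Tnf lower than any member.

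Loss of HOIL-1L, as labelled, came with no difference in any member beyond the spread between libraries. Of the 9 members that passed the filter on low values (at least 1 per M in 5 of the 10 libraries; Ripk3 did not), 0 had a limma adjusted p under 0.05. Across the whole table of 12946 tested genes 0% had one (smallest limma adjusted p = 0.269). Before adjustment, 1227 genes (9.48%) and 0 members lay under 0.05. With run as a covariate 1654 genes and 2 members, Ripk1 and Cflar, did, and with sex as a covariate 1349 genes and the same 2 members. Without wild type 6 or without knockout 2, 1 member, Cflar, did. Counts this small among 9 members say nothing particular about them. The members' log2 fold changes, knockout minus wild type, ran from -0.12 for Casp8 to 0.18 for Ripk1, with 6 above 0 and 3 below, and their median was 0.11, against 0.0053 over all genes tested. That median depended on single libraries, at 0.015 without wild type 5, 0.025 without knockout 5, 0.034 without wild type 6, 0.048 without wild type 4 and 0.055 without knockout 3, and it was -0.015 in the first run and 0.053 in the second. In the 8 libraries 0 members passed as well, where 52 genes (0.402%) did. Knockout and wild type ranges overlapped for all 10 members, with and without the doubted libraries. Most tested genes shared this, since ranges did not overlap for only 1.59% of them in the 10 libraries and 6.71% in the 8. Overlap in 10 genes is therefore nothing particular to the members.

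Tnfrsf1a, the gene of TNF receptor 1 (chromosome 6, 125349362 to 125362484, plus strand), stood at 103, 105, 90.3, 104 and 93.6 per M in knockout libraries 1 to 5, against 102, 95.5, 106, 102 and 107 per M in wild type libraries 2 to 6. The groups covered the same narrow band. Its log2 fold change was -0.05 ± 0.07 (SE, limma adjusted p = 0.839), with a 95% interval from -0.19 to 0.09, and -0.07 in the 8 libraries. Of all members it varied least, with a coefficient of variation of 5.71% over the 10 libraries, where the median tested gene had 13.3%.

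Tradd, the adaptor that binds the receptor's death domain (chromosome 8, 105258286 to 105264609, minus strand), stood at 13.2, 12.1, 10.8, 9.99 and 10.8 per M in knockout libraries, against 11.8, 13.8, 9.82, 11.3 and 12.1 in wild type libraries. High and low libraries occurred in both groups, and the log2 fold change was -0.05 ± 0.12 (SE, limma adjusted p = 0.921), and -0.09 in the 8 libraries. Fadd, the adaptor that brings caspase-8 into the complex (chromosome 7, 144577318 to 144582463, minus strand), stood at 17.8, 20.6, 17.9, 15.0 and 19.5 per M in knockout libraries, against 19.0, 18.8, 17.2, 15.6 and 16.5 in wild type libraries. Its highest and its lowest library were both knockout, and the log2 fold change was 0.05 ± 0.10 (SE, limma adjusted p = 0.892), and 0.09 in the 8 libraries. Fadd overlaps the antisense gene Faddos, and the strand setting of the counting is not given in the sources used here. How reads from the shared stretch were counted is therefore not known. The same holds for Ripk1, which overlaps Serpinb6a on the other strand. On the same strand, Ripk1 overlaps the processed pseudogene Gm17084 and Casp8 overlaps Gm37760. These are overlaps of whole gene spans, and overlap of exons was not looked up.

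Ripk1, the kinase whose ubiquitination steers the complex (chromosome 13, 34002363 to 34037147, plus strand), stood at 21.2, 21.8, 20.6, 24.1 and 26.1 per M in knockout libraries, against 14.6, 21.4, 18.4, 23.0 and 23.6 in wild type libraries. The lowest value, 14.6, was that of the library labelled wild type 2, and the other 9 lay between 18.4 and 26.1. The largest log2 fold change among the members was that of Ripk1, 0.18 ± 0.12 (SE, 95% interval -0.08 to 0.44, limma adjusted p = 0.653). Without the doubted libraries it was 0.10 ± 0.11 (limma adjusted p = 0.749), at 23.1 ± 2.45 per M in knockout and 21.6 ± 2.32 per M in wild type (SD, n = 4 each).

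Casp8, the initiator protease (chromosome 1, 58795374 to 58847503, plus strand), stood at 21.7, 20.9, 18.2, 13.1 and 18.1 per M in knockout libraries, against 21.3, 21.8, 16.8, 20.3 and 18.8 in wild type libraries. The lowest library was knockout 4, and the groups otherwise overlapped throughout. Its log2 fold change was -0.12 ± 0.13 (SE, 95% interval -0.39 to 0.15, limma adjusted p = 0.789), and -0.16 in the 8 libraries (limma adjusted p = 0.653). Cflar, which encodes cFLIP, the catalytically inactive relative of caspase-8, lies 36.5 kb from Casp8 on the same strand (chromosome 1, 58711508 to 58758884). It stood at 73.1, 64.7, 79.1, 83.4 and 78.4 per M in knockout libraries, against 56.8, 70.0, 61.6, 71.5 and 81.4 in wild type libraries. Again the library labelled wild type 2 was the lowest, while wild type 6 reached the upper knockout values. The log2 fold change of Cflar was 0.15 ± 0.09 (SE, 95% interval -0.05 to 0.36, limma adjusted p = 0.623), and without the doubted libraries 0.10 ± 0.10 (limma adjusted p = 0.684).

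Birc2 encodes cIAP1, a ubiquitin ligase for RIPK1 (chromosome 9, 7818227 to 7837064, minus strand). It stood at 18.7, 14.7, 17.1, 18.9 and 15.5 per M in knockout libraries, against 15.8, 18.6, 13.5, 15.3 and 14.9 in wild type libraries. Birc2 values lay within a common band, with a log2 fold change of 0.12 ± 0.11 (SE, limma adjusted p = 0.743), and 0.09 in the 8 libraries. Xiap, an inhibitor of caspases that is itself a ubiquitin ligase (chromosome X, 42059679 to 42109656, plus strand), stood at 107, 98.0, 121.5, 94.7 and 99.3 per M in knockout libraries, against 96.0, 101, 73.7, 104 and 111 in wild type libraries. Its highest library was knockout 3 and its lowest wild type 4, and the log2 fold change was 0.11 ± 0.10 (SE, limma adjusted p = 0.753), and 0.09 in the 8 libraries. Although Xiap is X-linked, its range in the 3 female libraries (96.0 to 121.5 per M) overlapped that in the 7 male libraries (73.7 to 111 per M).

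**Figure D2:**
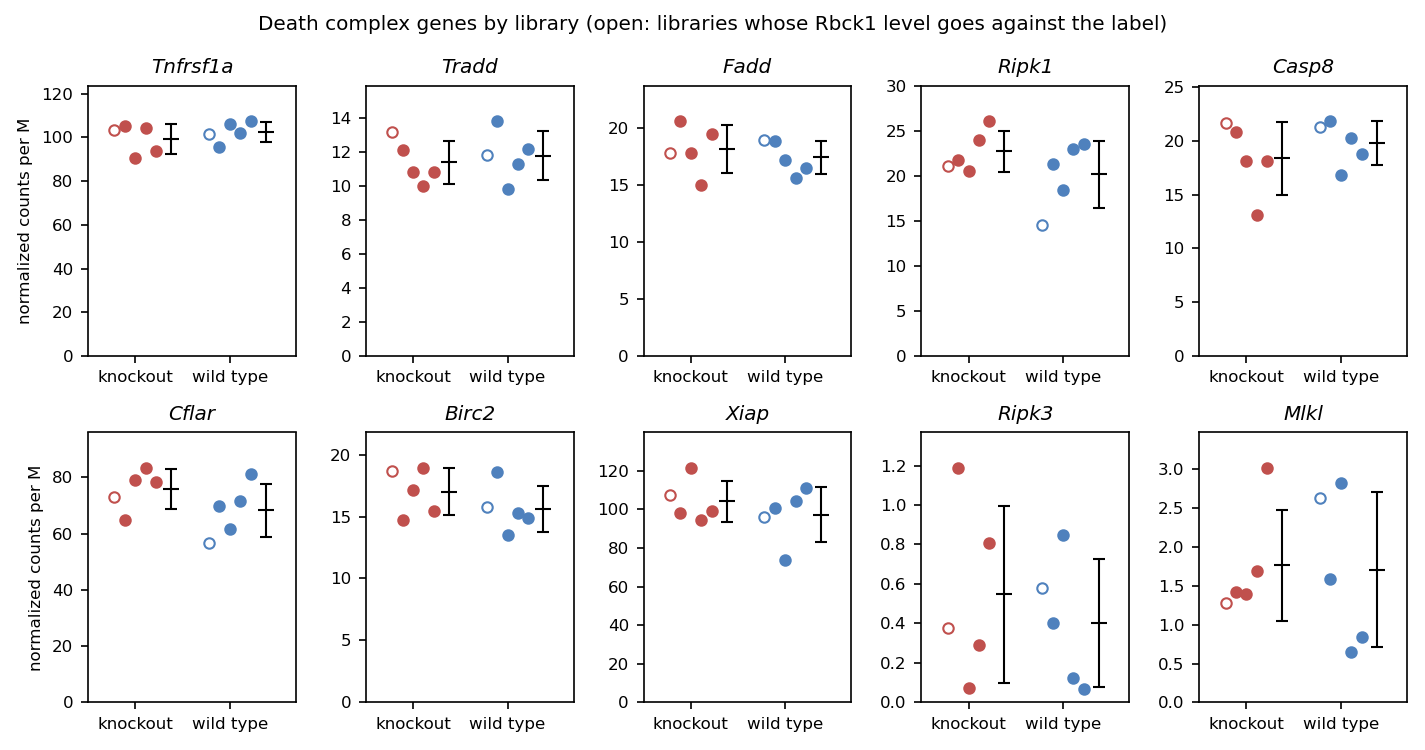
Normalized counts per M (linear axes from 0) of each member in knockout (red, left) and wild type (blue, right) libraries, with the mean and SD of 5 libraries beside each group; open points are the libraries labelled knockout 1 and wild type 2, whose Rbck1 level goes against the label. The groups overlap in all 10 panels, and the Ripk3 and Mlkl axes end near 1 and 3 per M.

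Ripk3, the kinase that commits a cell to necroptosis (chromosome 14, 55784995 to 55788865, minus strand), stood at 0.378, 1.19, 0.0717, 0.292 and 0.808 per M in knockout libraries, against 0.581, 0.402, 0.848, 0.125 and 0.0655 in wild type libraries. These values correspond to roughly 0.877 to 10.8 reads per library, and 3 libraries, knockout 3 and wild type 5 and 6, lay under the value of 3 reads (0.224 to 0.381 per M by library). Only knockout 2 exceeded 1 per M, so Ripk3 was not tested with the others. Mlkl, the membrane-breaching effector (chromosome 8, 111311797 to 111338177, minus strand), stood at 1.28, 1.43, 1.40, 1.68 and 3.02 per M in knockout libraries, against 2.62, 1.59, 2.82, 0.650 and 0.847 in wild type libraries. The lowest and 2 of the 3 highest values were in wild type libraries, and roughly 5.12 to 35.9 reads stood behind each value. Its log2 fold change, 0.11 ± 0.31 (SE, limma adjusted p = 0.928), had an interval from -0.54 to 0.77. Without the doubted libraries it was 0.35 ± 0.34 (limma adjusted p = 0.693). With so few reads behind it, Ripk3 is given as levels here. Mlkl overlaps the processed pseudogene Gm45712 on the other strand.

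The intervals bound the difference in the members' messenger RNA between the groups as labelled. In the same fit over the 10 libraries the targeted gene Rbck1 did not pass either (limma adjusted p = 0.580). For 8 of the 9 tested members, all but Mlkl, the 95% interval left out a change of 1.5-fold in either direction, with the 10 libraries and with the 8. The narrowest, for Tnfrsf1a, ran from 0.878 to 1.07 as a ratio of knockout to wild type in the 10 libraries and from 0.854 to 1.07 in the 8. The Mlkl interval left out 2-fold in the 10 libraries (0.686 to 1.71), but not in the 8 (0.777 to 2.08). Within the second run of mouse numbers, which holds neither doubted library, 0 members passed (smallest limma adjusted p = 0.622, background 0.317%), with log2 fold changes from -0.26 to 0.68. The first run as labelled also gave 0 (smallest limma adjusted p = 0.656, background 0%), with log2 fold changes from -0.45 to 0.26.

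**Figure D3:**
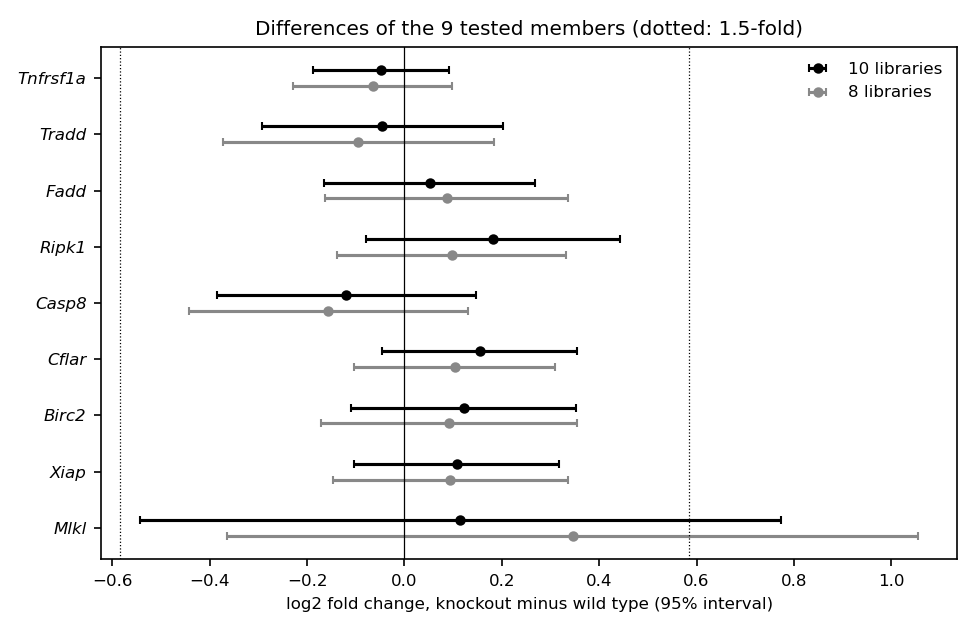
Log2 fold change, knockout minus wild type, of the 9 tested members with 95% intervals from limma, with all 10 libraries (black) and without the libraries labelled knockout 1 and wild type 2 (grey); dotted lines mark 1.5-fold. Every interval includes 0, and the Mlkl intervals alone cross the dotted lines.

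Across libraries the members did not move as a block. Among the 36 pairs of tested members, Pearson's r of log2 values over the 10 libraries ran from -0.60 to 0.82, with 14 pairs above 0. For Tradd and Casp8, r was 0.81 (permutation p = 0.00178, adjusted p = 0.0385 over the 36 pairs) and Spearman's rho 0.90 (permutation p = 0.00087, adjusted p = 0.0313). It was 0.84 without the 2 libraries farthest from the median Tradd level and 0.80 in the 8 libraries. For Ripk1 and Cflar, r was 0.82 (permutation p = 0.00214, adjusted p = 0.0385) but rho 0.67 (permutation p = 0.0384, adjusted p = 0.461), with r at 0.70 without the 2 farthest libraries and 0.69 in the 8. The remaining 34 pairs did not pass. Each run holds 5 libraries, too few for a correlation within it, and the permutations did not keep the runs apart. Tradd ran from 10.8 to 13.8 per M in the first run and from 9.82 to 12.1 in the second. Casp8 ran from 18.2 to 21.8 and from 13.1 to 20.3. Ripk1 ran from 14.6 to 21.8 and from 18.4 to 26.1, and Cflar from 56.8 to 79.1 and from 61.6 to 83.4. The part of run in these correlations was not tested. By the rule of highest r over the 10 libraries, the tested gene most like Ripk1 was Chd1 (r = 0.967), that most like Cflar was Dnajb14 (0.964) and that most like Casp8 was Fyb (0.914). For the 9 members the highest r lay between 0.914 and 0.967, each the top of 12945 genes compared.

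**Figure D4:**
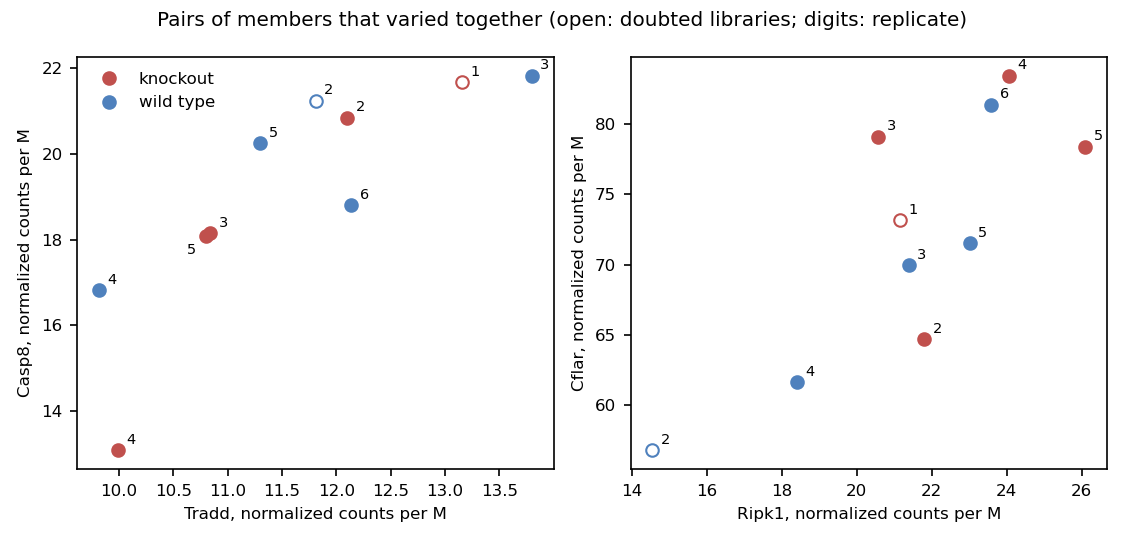
Normalized counts per M of Casp8 against Tradd and of Cflar against Ripk1, 1 point per library, numbered by replicate, knockout in red and wild type in blue, open for the libraries labelled knockout 1 and wild type 2. Points of both groups are mixed along each trend, and the library labelled wild type 2 is the lowest for Ripk1 and Cflar.

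A wider list of 54 genes around the complex was read in the same fit. Of the 49 tested, 0 passed over all genes in the 10 libraries or in the 8. In the 10 libraries 29 log2 fold changes lay above 0 and 20 below, with a median of 0.03. Among the ligands, Tnf was listed at 0 in 8 of 10 libraries and lay under the value of 3 reads in all 10, while Tnfsf10 (TRAIL) averaged 4.48 ± 1.53 per M in knockout and 4.24 ± 1.01 per M in wild type (SD, n = 5 each). Lta and Fasl were not found by symbol among the genes of the deposited table. Among the receptors, Fas averaged 2.70 ± 1.01 per M in knockout and 2.43 ± 0.815 per M in wild type. Tnfrsf1b, TNF receptor 2, averaged 17.2 ± 3.30 and 14.4 ± 2.16 per M, and the limma adjusted p of its log2 fold change of 0.25 was 0.586. Tnfrsf21, the gene of death receptor 6, had the largest log2 fold change of the 8 genes with the smallest p, 0.40 ± 0.19 (SE, limma adjusted p = 0.530). The Tnfrsf21 value was 0.74 in the first run alone, which holds both doubted libraries, and 0.04 in the second. For Tnfrsf1b the log2 fold change was 0.35 in the first run and 0.04 in the second.

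Birc3, which encodes cIAP2, a close relative of cIAP1 that also marks RIPK1, had the smallest p of this list in the 10 libraries. It stood at 62.3, 67.8, 60.6, 65.9 and 63.9 per M in knockout libraries, against 59.7, 55.0, 48.7, 56.9 and 58.9 per M in wild type libraries. Every knockout library lay above every wild type library, a pattern seen in 1.59% of all tested genes in either direction, and no other gene of the list shared it. The difference was small, with a log2 fold change of 0.20 ± 0.07 (SE, 95% interval 0.05 to 0.35), and it did not pass (limma adjusted p = 0.398, and 0.241 in the 8 libraries, where Adar had the smallest, 0.183). Birc6, a giant ubiquitin-conjugating inhibitor of apoptosis, averaged 123 ± 15.7 per M in knockout and 104 ± 12.4 per M in wild type (log2 fold change 0.25, limma adjusted p = 0.440). Tnfaip3 (A20), which binds linear chains and edits ubiquitin on RIPK1, averaged 15.5 ± 4.04 and 12.3 ± 1.69 per M (log2 fold change 0.30, limma adjusted p = 0.572).

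Of the caspase cascade, 12 genes were tested, with 5 log2 fold changes above 0 and 7 below. Diablo, whose mitochondrial protein relieves XIAP's block on caspases, averaged 28.6 ± 2.66 per M in knockout and 33.1 ± 1.84 per M in wild type (log2 fold change -0.21 ± 0.08 SE, limma adjusted p = 0.456). Cycs, the gene of cytochrome c, averaged 15.9 ± 1.45 and 19.2 ± 3.25 per M (log2 fold change -0.25, limma adjusted p = 0.522). On the necroptosis side, Zbp1, a sensor that can engage RIPK3, averaged 2.004 ± 0.911 and 2.16 ± 1.84 per M. The wild type mean of Zbp1 rests on the library labelled wild type 2 (5.43 per M, the other 4 between 0.952 and 1.71). In the 8 libraries Zbp1 averaged 2.28 ± 0.772 per M in knockout and 1.35 ± 0.320 per M in wild type. Its log2 fold change there was 0.56 ± 0.27 (SE, limma adjusted p = 0.385), against 0.03 ± 0.35 in the 10. Zbp1 was highest in the 3 female libraries (wild type 2 at 5.43, knockout 2 at 3.13 and knockout 3 at 2.65 per M). The 7 male libraries lay between 0.896 and 1.97 per M. The 8 libraries hold no female wild type library, and the part of sex in the Zbp1 difference was not tested. Hsp90aa1, a chaperone of RIPK1 and RIPK3, averaged 178 ± 21.2 and 197 ± 11.2 per M (limma adjusted p = 0.581). The pyroptosis effector Gsdmd averaged 12.9 ± 0.801 and 12.05 ± 0.801 per M (limma adjusted p = 0.777).

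**Figure D5:**
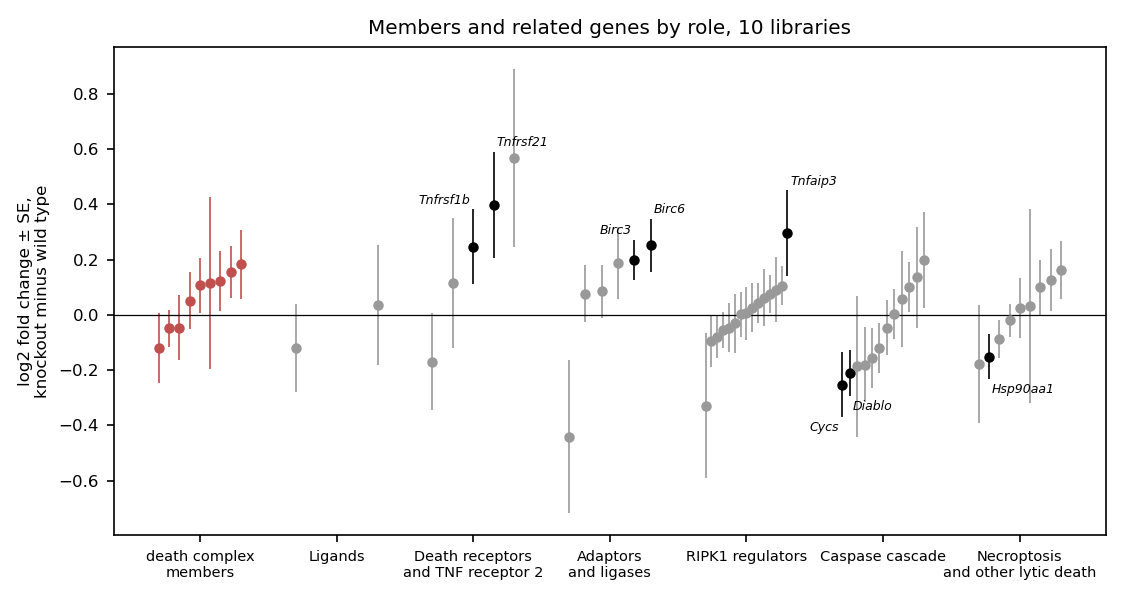
Log2 fold change, knockout minus wild type, with its SE in the 10 libraries for the 9 tested members (red) and 49 related genes by role; the 8 related genes with the smallest p are black and named. Values scatter on either side of 0 in every role, and Birc3, at 0.20, has the smallest p.

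Summed macrophage and monocyte markers ranged from 19.2 to 34.6 per M in knockout and from 19.0 to 28.4 per M in wild type libraries, with all 4 tested markers above 0 on the log2 fold change scale and 0 passing. Fibroblast and smooth muscle markers summed to between 2.75 and 8.97 per M in knockout and between 7.06 and 13.8 per M in wild type libraries, with 0 of 5 tested markers above 0 and 0 passing. Lymphocyte markers summed to at most 0.121 per M in knockout and 0.830 per M in wild type libraries. Of 6 neutrophil markers, 0 were found by symbol among the genes of the deposited table. Summed AT1 markers ran from 1855 to 2212 per M in knockout and from 1763 to 2408 per M in wild type libraries, club cell markers from 4959 to 9087 and from 4741 to 9293 per M, ciliated cell markers from 89.8 to 143 and from 94.9 to 171 per M, and endothelial markers from 9.84 to 14.0 and from 10.4 to 15.6 per M, with 0 passing in these lists. At the low level of Ripk3 and Mlkl, the part of such cells in their values was not tested.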

How the data were processed

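The authors deposited 1 table of normalized read counts per gene, a signal that is never negative, for 10 libraries, with column totals of 6.94 to 7.43 M. Tools and builds listed in the submitters' processing notes, without their role, are bcl2fastq 2.17, edgeR 3.14.0 and mm10. How reads were aligned, counted by strand and normalized is not given in the sources used here. Whole reads were not recovered, since low values were not exact multiples of 1 step. Depth is estimated from the lowest cluster of values. Titles in the labels tie each column to its sample.

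One divisor, 7.14 M (the average of the column totals), put every value on the per M scale. Symbols matched 16026 of 16154 IDs. Positions and exon lengths are from GENCODE M21 (mm10). The test was limma-trend (limma 3.58.1, R 4.3.3) with no covariate on log2(value per M + 0.5), knockout minus wild type and two-sided, for 12946 genes that reached 1 per M in 5 or more libraries, Benjamini-Hochberg adjusted over all of them. Fold changes are on that log2 scale, which understates those of low genes. Correlations used 100000 permutations. The fit was also run on data simulated with independent noise and no run, sex or label errors, so that trial does not cover these. Python 3.11.15 was used otherwise.

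The members, the list of 54 related genes, the marker lists and the test were chosen with earlier results of these data known. Named are the members, Rbck1, the 8 related genes with the smallest p, any that passed, and the most like gene of a member. Other related genes (Tnf, Tnfsf10, Fas, Zbp1, Gsdmd) were named after their values were seen, for their role. Lta and Fasl, which have no values here, were named for their role too. Some genes of the list enter its counts but are not reported here singly. Alternatives were a stricter filter (5 per M) or none, pseudocounts of 0.1 and 2, equal totals, median-ratio factors, the replicate number as a block, run or sex as a covariate, each run alone, sample weights and leaving out each library. Leaving out the libraries labelled knockout 1 and wild type 2 was chosen after seeing the data.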

Additional observations from a re-analysis of the deposited data

Results flagged for a closer look

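In 38 groups of 5 libraries checked for a single far value, 2 were found, and chance gives about 1 in 20. Mlkl in knockout 5, at 3.02 per M, lay above the other 4 knockout libraries (1.28 to 1.68 per M), and wild type 2 and 4 reached similar levels. Rbck1 in the library labelled wild type 2, at 29.7 per M, lay below the other 4 wild type libraries (56.1 to 57.8 per M).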

How the results depend on the processing

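Under 23 alternatives with the 10 libraries and 9 with the 8, 0 members passed, and the smallest limma adjusted p of a member was 0.125. Of 287 member values, 9 changed sign, none of them past the threshold. In the first run alone the log2 fold change was 0.011 for Tnfrsf1a, -0.015 for Fadd, -0.029 for Birc2 and -0.45 for Mlkl, each opposite to the 10 libraries. With single libraries left out Tradd ran from -0.11 to 0.012 and Mlkl from -0.088 to 0.29, and among the 8 libraries Xiap ran from -0.033 to 0.16. Without a filter, Ripk3 had a log2 fold change of 0.18 ± 0.30 (SE, limma adjusted p = 0.879). Genes passing over the whole table numbered 0 in the main test, 1 with run as a covariate, 41 in the second run alone, 52 without both doubted libraries and 0 to 4 with single libraries left out (4 without knockout 1). Among the 8 libraries the count of 52 became 27 with sex as a covariate and ran from 19 to 100 with 1 more library left out (leaving out wild type 4 gave 26, wild type 5 gave 19 and wild type 6 gave 100, while leaving out knockout 3 gave 32 and knockout 4 gave 84). The Rbck1 difference ran from -0.52 to -0.24 with single libraries left out. It was past p = 0.05 without the library labelled wild type 2 or knockout 1 (exact permutation p = 0.0476 each). Without both it was -0.67. These libraries were left out for their Rbck1 level, which fixed the separation in advance. The exact permutation p there (0.0286, the smallest possible) is therefore no test. Deviations of libraries with the same replicate number had r from 0.0265 to 0.314, and 3 of 8 libraries were most like their own number. Libraries that share a number also share a run. These values therefore cannot decide whether the numbers pair mice. Replicate 1 is only in knockout and replicate 6 only in wild type. With the replicate number as a block, the difference therefore rests on replicates 2 to 5. In that fit 261 genes, 0 members and 1 related gene, Birc6 (log2 fold change 0.32, limma adjusted p = 0.0431), passed. There 2449 of 12946 genes and 2 members (Ripk1 and Cflar) had an unadjusted limma p under 0.05. The cause of these changes was not tested. Depth limits Ripk3, at 0.877 to 10.8 reads per library, and to a lesser degree Mlkl.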

Other observations

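The balance of Cflar to Casp8 was computed after their values had been seen, and is given with no test. The ratio of their normalized counts was 3.37, 3.10, 4.36, 6.38 and 4.33 in knockout libraries 1 to 5, against 2.67, 3.20, 3.66, 3.53 and 4.33 in wild type libraries 2 to 6. It averaged 4.31 ± 1.29 in knockout and 3.48 ± 0.609 in wild type (SD, n = 5 each). The ranges overlapped, and knockout 4, with the lowest Casp8 and the highest Cflar level, stood above the others.

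In the 8 libraries 4 of the 49 tested related genes (8.16%) had groups that did not overlap, a share near the 6.71% of all tested genes, so the count says nothing particular about the list. They were named after their values were seen. Birc3 (64.6 ± 3.06 per M in knockout, 54.9 ± 4.41 per M in wild type), Gsdmd (13.15 ± 0.759 and 11.7 ± 0.367) and Adar, an RNA-editing enzyme that restrains ZBP1 (42.1 ± 4.19 and 33.9 ± 1.98), were higher in every knockout library. Diablo (27.7 ± 1.86 and 32.5 ± 1.32) was lower in every knockout library. The values are means with SD over 4 libraries each, and the smallest limma adjusted p of the list in the 8 libraries was 0.183. Over all 10 libraries Adar was highest in the 3 female ones (knockout 2 at 47.9, knockout 3 at 42.3, wild type 2 at 41.2 per M). The 7 male libraries lay between 31.0 and 39.7 per M. The 8 leave out wild type 2, the only female wild type library. The part of sex in the Adar difference was not tested.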
